A study of Mus musculus with 4 samples.

Results

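The 10 pan-endothelial genes Pecam1, Cdh5, Kdr, Flt1, Tek, Tie1, Emcn, Esam, Cldn5 and Egfl7 are identity genes of blood vessel endothelium. They were taken by name from a table of 55573 mouse genes, and all 10 were found and passed the filter on low counts. Counts came from RNA immunoprecipitation sequencing (RIP-seq), in which an antibody on beads pulls down a protein and the RNA held with it is sequenced. The cells carried CD31, the protein of Pecam1, and were sorted by flow cytometry from the caudal part of wild-type C57BL/6 embryos at embryonic day 10.0. Of 4 libraries, 2 were made with an antibody against Runx1, the transcription factor that endothelium needs to form blood, and 2 with IgG, a non-specific antibody that measures background. Both groups had the same tissue, genotype, age and sort, so that the antibody was the only labelled difference. The labels do not say whether replicates are separate embryos or sorts. The p-values thus reflect only how much these libraries vary, which may be technical.

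Endothelial cells line vessels and are joined by adherens junctions, built on VE-cadherin (Cdh5), and by tight junctions, to which claudin-5 (Cldn5) belongs. Their growth is driven by VEGF, which binds the receptor tyrosine kinases VEGFR2 (Kdr) and VEGFR1 (Flt1), and their stability by angiopoietins, the ligands of TIE2 (Tek), whose partner is the orphan receptor TIE1. In the mid-gestation embryo part of the arterial endothelium becomes haemogenic, switching on Runx1 and releasing blood progenitors.

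Relative to each library's gene counts, none of these mRNAs was called different between the Runx1 antibody and IgG. With spike-in scaling all 10 log2 fold changes were below 0 and 5 were called lower, as were 31.6% of all tested genes (described with the choice of scale). The 10 together made up 0.172% of gene counts with the Runx1 antibody and 0.183% with IgG, and their summed level was 1883.6 and 1546.7 against 1847.9 and 1814.6 CPM (counts per 1e6 gene counts). The lowest and the highest of these sums were therefore both from the Runx1 antibody. Kdr and Flt1 made up most of the sum in every library. In edgeR's quasi-likelihood test 0 of the 10 genes rose and 0 fell at a false discovery rate of 0.05, where 0.645% of the 12401 tested genes were called (0.306% higher and 0.339% lower). DESeq2, which gave Cldn5 no adjusted p, and limma-voom also called 0 of the 10, and 4.76% and 1.79% of all tested genes. Before adjustment, 1 of the 10 (Tek) had an edgeR p under 0.05, as did 14.2% of all tested genes (6.88% higher and 7.36% lower). The 10 log2 fold changes (Runx1 antibody over IgG) ran from -0.81 to 0.55 with a median of 0.15, where the median of all tested genes was 0.027. Of the 10, 6 were above 0 and 4 below, and 9 lay between the 25th and 75th percentiles of all tested genes (-0.48 and 0.59). Both Runx1 libraries lay above both IgG libraries for 1 gene (Tie1) and below them for 3 (Kdr, Tek and Emcn). The libraries of 45.4% of all tested genes were separated in the same sense (24.1% higher and 21.3% lower).

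**Figure D1:**
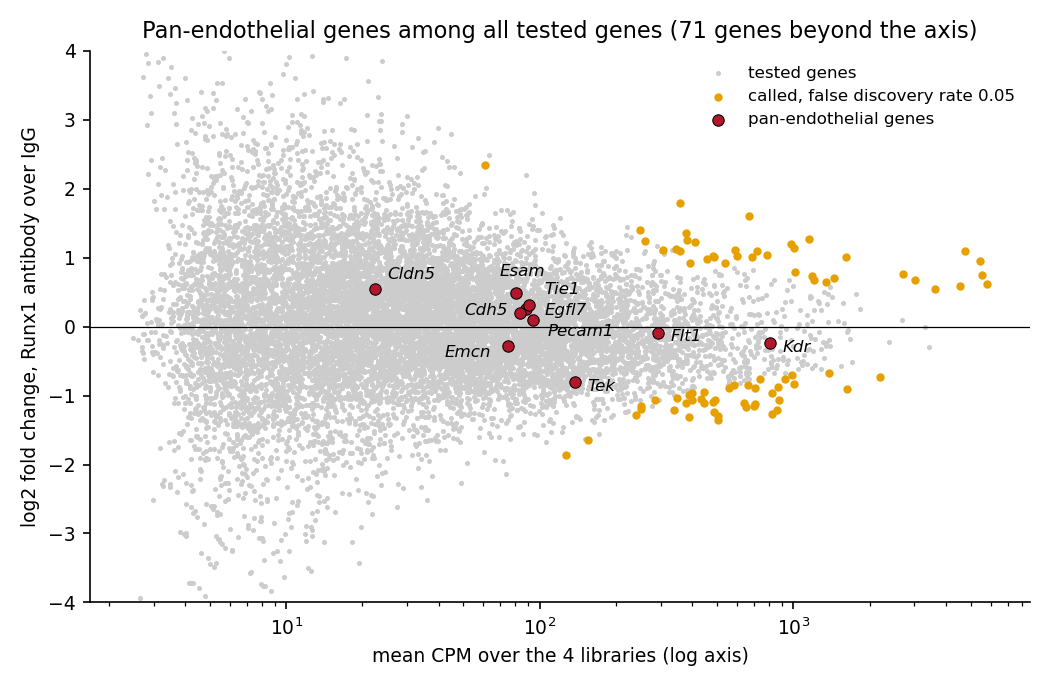
Log2 fold change (Runx1 antibody over IgG) of each of the 12401 tested genes against its mean CPM over the 4 libraries, on a log axis. The 10 pan-endothelial genes (red) lie within the cloud of genes that were not called (grey), and the 80 called genes (orange) lie mostly at higher CPM and further from 0.

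With 2 libraries a group, the intervals show which sizes of change the data bound. The 95% interval of the fold change lay within 2-fold in either direction for 4 of the 10, which are Pecam1, Cdh5, Kdr and Flt1. That held for 13.1% of all tested genes. The other 6 intervals reach past 2-fold in at least 1 direction, and the widest, of Cldn5, ran from 0.526-fold to 4.04-fold.

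None of the 4 junction genes passed the test, and their Runx1 and IgG ranges overlapped. Pecam1 encodes CD31, an adhesion molecule of endothelial cell borders and the surface protein of the sort. Its mRNA stood at 93.1 and 102.8 CPM (Runx1) against 99.9 and 79.4 (IgG). These ranges overlapped, and the log2 fold change with its SE was 0.10 ± 0.31 (edgeR adjusted p = 0.938, 95% interval 0.652-fold to 1.76-fold). Cdh5 stood at 100.3 and 80.5 CPM against 88.5 and 66.1, again overlapping (0.19 ± 0.34, edgeR adjusted p = 0.868). The Cdh5 to Pecam1 count ratio within a library was 1.08 and 0.784 in the Runx1 libraries and 0.885 and 0.832 in the IgG libraries, and the values of the groups overlapped.

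Esam, an adhesion molecule of endothelial tight junctions and platelets, stood at 120.6 and 70.5 CPM (Runx1) against 82.5 and 50.0 (IgG). In both groups replicate 1 was the higher, by more than the gap between the group means of 95.5 and 66.2 CPM (log2 fold change 0.49 ± 0.41, edgeR adjusted p = 0.668). Cldn5, the claudin that seals endothelial tight junctions, was the scarcest of the 10 with 203 counts in all. Its 59 and 35 counts (Runx1) and 55 and 54 counts (IgG) correspond to 35.2 and 18.5 against 14.3 and 21.8 CPM. Runx1 replicate 1 alone was high and the other 3 libraries were close together (log2 fold change 0.55 ± 0.65, edgeR adjusted p = 0.784). With each library left out in turn, the log2 fold change of Cldn5 ran from -0.0097 to 0.92 and that of Esam from 0.031 to 0.89. The lowest value of both came without Runx1 replicate 1.

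**Figure D2:**
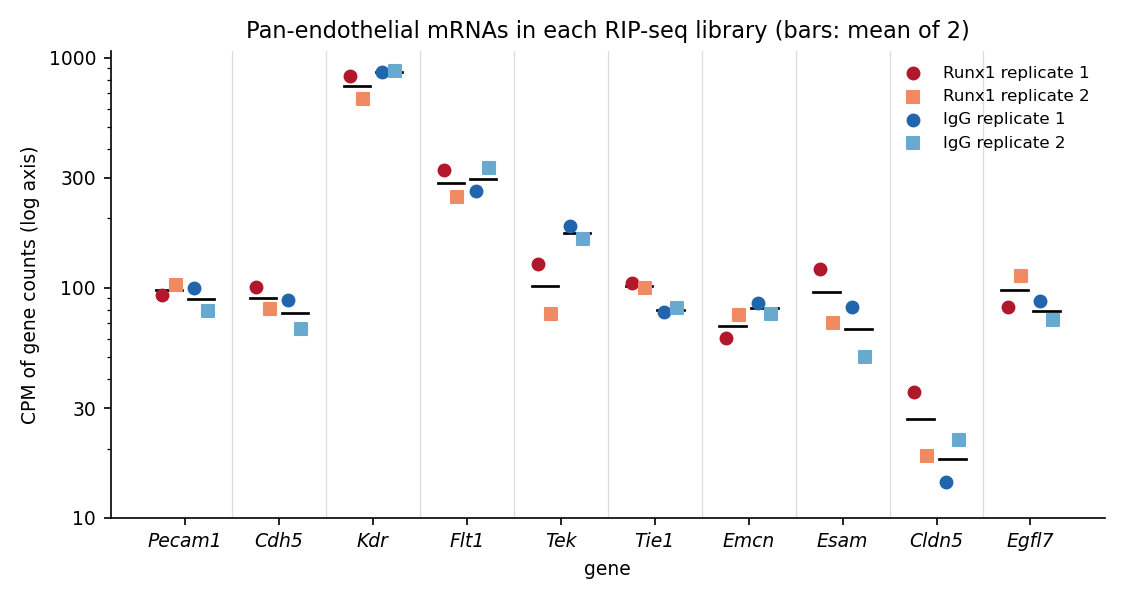
CPM of each pan-endothelial gene in each library on a log axis, with red and orange for the Runx1 antibody, blue for IgG, and black bars for the mean of 2 libraries. Kdr stands highest at 662.9 to 872.7 CPM and Cldn5 lowest at 14.3 to 35.2. The Runx1 and IgG points are apart for Tek and Tie1 and only narrowly for Kdr and Emcn.

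The VEGF receptors were the most abundant of the 10 in counts. Kdr, which carries most of the growth signal of VEGF, ranked 124 of the 12401 tested genes by mean CPM. It stood at 836.2 and 662.9 CPM in the Runx1 libraries and at 862.5 and 872.7 in the IgG libraries. Both Runx1 values were below both IgG values, though replicate 1 only narrowly, and the difference did not pass (log2 fold change -0.24 ± 0.14, edgeR adjusted p = 0.509). Kdr went to -0.44 without Runx1 replicate 1 (edgeR adjusted p = 0.0895) and to -0.11 without Runx1 replicate 2 (edgeR adjusted p = 0.815). The interval of 0.676-fold to 1.06-fold with all libraries is the narrowest of the 10. Flt1, a high-affinity receptor that also acts as a decoy for VEGF, stood at 324.7 and 246.9 CPM against 263.6 and 331.6. Its replicates spanned the same range in both groups (-0.09 ± 0.21, edgeR adjusted p = 0.912). Kdr counts were 2.58 and 2.68 times those of Flt1 with the Runx1 antibody and 3.27 and 2.63 times with IgG, so the ratio of the receptors overlapped between the antibodies.

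Of the angiopoietin receptors, Tek showed the largest difference of the 10. Its counts were 212 and 145 in the Runx1 libraries and 712 and 403 in the IgG libraries, or 126.5 and 76.8 against 185.3 and 162.4 CPM. All of the Runx1 values were below all of the IgG values (101.7 ± 35.1 against 173.8 ± 16.2 CPM, mean ± SD, n = 2 and 2). The log2 fold change of -0.81 ± 0.30 had an unadjusted p of 0.0267 and did not pass (edgeR adjusted p = 0.282, 0.355-fold to 0.922-fold). Without Runx1 replicate 1, the higher of the pair, Tek was called lower (-1.23 ± 0.34, edgeR adjusted p = 0.0362), in a fit that called 2.48% of its 14207 genes lower. Without Runx1 replicate 2 it was -0.51 ± 0.31 (edgeR adjusted p = 0.503), and without IgG replicate 1 or 2 it was -0.72 or -0.91, so Tek was called in 1 of the 4 fits that leave out a library. In the fits with 1 Runx1 library, that library is assumed to vary like the IgG libraries.

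Tie1 lay on the other side. It stood at 104.4 and 99.6 CPM (Runx1) against 78.6 and 81.8 (IgG), with close replicates and no overlap, and did not pass (0.32 ± 0.31, edgeR adjusted p = 0.719). The count ratio of Tek to Tie1 was singled out after the values were seen. It was 1.21 (exact 95% interval 0.987 to 1.49, counting error only) and 0.771 (0.617 to 0.963) with the Runx1 antibody. With IgG it was 2.36 (2.06 to 2.71) and 1.99 (1.67 to 2.36). The counting intervals of the groups did not overlap, and a two-sided exact permutation test gave p = 0.333, the smallest value that 2 against 2 libraries allow. Neither gene passed on its own, and a difference in this ratio is not shown.

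The promoters of the 4 receptor genes are shown because these pairs of related receptors hold the most abundant member and the largest difference. They run from 250 bases before to 50 after the start site (RefSeq, GRCm38.p6, 5′ to 3′ on the strand of the gene). Capitals mark GGAAG or its reverse complement CTTCC, a form of the core of the sites that ETS factors bind. Other forms of that core are not marked. Kdr is at chr5:75978406-75978705 (minus strand), Flt1 at chr5:147725962-147726261 (minus), Tek at chr4:94739039-94739338 (plus) and Tie1 at chr4:118489800-118490099 (minus).
Kdr: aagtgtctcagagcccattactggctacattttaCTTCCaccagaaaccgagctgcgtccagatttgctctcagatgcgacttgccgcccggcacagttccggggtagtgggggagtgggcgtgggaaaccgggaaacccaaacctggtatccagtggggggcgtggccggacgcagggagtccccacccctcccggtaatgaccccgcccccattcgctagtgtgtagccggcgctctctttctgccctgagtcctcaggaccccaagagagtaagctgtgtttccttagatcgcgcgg
Flt1: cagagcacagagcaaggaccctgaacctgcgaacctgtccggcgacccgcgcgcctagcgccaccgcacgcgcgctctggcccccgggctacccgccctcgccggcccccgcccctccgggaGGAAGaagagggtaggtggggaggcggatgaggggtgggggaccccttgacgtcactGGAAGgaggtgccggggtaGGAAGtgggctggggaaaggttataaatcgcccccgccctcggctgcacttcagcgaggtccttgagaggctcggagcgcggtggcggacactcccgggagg
Tek: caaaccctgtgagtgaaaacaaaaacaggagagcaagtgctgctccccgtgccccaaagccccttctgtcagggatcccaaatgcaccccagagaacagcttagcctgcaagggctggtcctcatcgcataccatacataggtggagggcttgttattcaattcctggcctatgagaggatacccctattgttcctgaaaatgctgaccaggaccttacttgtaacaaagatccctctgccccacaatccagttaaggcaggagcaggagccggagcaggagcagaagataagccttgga
Tie1: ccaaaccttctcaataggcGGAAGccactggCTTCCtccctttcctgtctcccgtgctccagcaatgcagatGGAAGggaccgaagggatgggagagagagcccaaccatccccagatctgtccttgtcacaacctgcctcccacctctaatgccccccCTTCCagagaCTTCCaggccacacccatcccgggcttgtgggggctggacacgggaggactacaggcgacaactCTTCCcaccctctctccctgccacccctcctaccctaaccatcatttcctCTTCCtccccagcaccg

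The Tie1 window holds 7 such matches, Flt1 3, Kdr 1 and Tek 0, where other forms of the core were not counted. Promoter windows were found for 7 of the 10 genes, with 9 windows in all because Egfl7 has several start sites. Entries for Pecam1, Cdh5 and Esam were not in the table. GGAAG on either strand was in 6 of the 9 windows, against 71.4% of all 32851 promoter windows of the same length. TGTGGT, a core that RUNX proteins bind (reverse complement ACCACA), was in 0 of the 9 windows, against 16.8% of all windows, and the motifs do not overlap each other. A match is a string of letters in these windows and not a binding site.

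The remaining members are a surface mucin and a secreted protein. Emcn encodes endomucin, a sialomucin of capillary and venous endothelium. It stood at 60.3 and 75.8 CPM in the Runx1 libraries and 85.6 and 77.0 in the IgG libraries, where the nearest Runx1 and IgG libraries differed by little (log2 fold change -0.28 ± 0.35, edgeR adjusted p = 0.791). Egfl7 encodes a protein with EGF-like domains that endothelium secretes, and its locus also carries the microRNA genes Mir126a and Mir126b. It stood at 82.4 and 112.3 CPM against 87.2 and 72.1, overlapping (0.26 ± 0.34, edgeR adjusted p = 0.806). Exons of Egfl7 overlap those of 4 genes in the annotation, Agpat2 and Gm20532 among them beside both microRNA genes, so its counts are less certain. The other 9 share no exon with another gene, and none of the 10 has a stretch of at least 200 bases at 95% identity in a transcript of another gene.

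In GENCODE M21 (mm10), Pecam1 lies on chromosome 11 (106654217 to 106750628), Cdh5 on chromosome 8 (104101625 to 104144511), Esam on chromosome 9 (37528078 to 37538319) and Cldn5, a gene of 1 exon, on chromosome 16 (18776847 to 18778262). Kdr (75932827 to 75978458) and Flt1 (147561604 to 147726011) lie on chromosome 5, and Tek (94739289 to 94874976) and Tie1 (118471191 to 118490061) on chromosome 4. Emcn lies on chromosome 3 (137341067 to 137432185) and Egfl7 on chromosome 2 (26580014 to 26593120). Values are counts over the exons of each gene as the table gives them, and the labels do not state whether strand was used.

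Levels of different genes were compared per length, as CPM per kilobase of all annotated exons. On that scale Kdr stood first in each of the 4 libraries (mean 89.5, range 73.4 to 96.6 CPM per kilobase) and its range did not overlap that of any other member. Tek (29.2), Esam (28.2), Egfl7 (24.7), Flt1 (21.6), Cdh5 (19.9), Tie1 (18.5), Cldn5 (15.9), Pecam1 (15.1) and Emcn (13.8) followed. Each of these overlapped its neighbour in the order, so that below Kdr the order was not resolved by the spread over 4 libraries. The order also depends on the length used. By the longest transcript Kdr was again first (136.5 CPM per kilobase) and Egfl7 (47.4), Esam (43.4) and Flt1 (42.3) came next, while Tek (29.6) and Pecam1 (27.3) followed and Cdh5 (21.0) was near the end. The level of the sort gene Pecam1 was thus several times below that of Kdr by either length.

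Differences between the 10 fold changes ran with the base composition of their transcripts. The GC content of the longest transcript was 40.7% for Emcn, 47.1% for Tek, 49.4% for Kdr, 50.2% for Pecam1, 50.5% for Flt1 and 52.2% for Cdh5. It was 53.7% for Esam, 57.1% for Egfl7, 57.6% for Tie1 and 60.5% for Cldn5, where the median of all tested genes was 48.7%. The longest transcript need not be coding, and that of Emcn (3521 bases) was not its longest coding one (2588 bases). Over the 10 genes the log2 fold change correlated with GC content (Spearman's rho 0.94, Pearson's r 0.77) and inversely with transcript length (rho -0.67, r -0.66 on log2 length). The genes share the 4 libraries and are not independent. Over the 12396 tested genes with a length, rho was 0.24 for GC content and -0.26 for length. The first 90 coding bases of the genes at either end, from the longest coding transcript, are shown with G and C in capitals (GENCODE M21, both on the plus strand). That of Cldn5 starts at position 18776996 of chromosome 16 and holds 60.0% G and C, and that of Emcn starts at 137341240 of chromosome 3, runs over an exon junction to 137372744 and holds 47.8%.
Cldn5: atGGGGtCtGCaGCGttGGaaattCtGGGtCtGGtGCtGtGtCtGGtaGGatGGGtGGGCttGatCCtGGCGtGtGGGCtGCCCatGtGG
Emcn: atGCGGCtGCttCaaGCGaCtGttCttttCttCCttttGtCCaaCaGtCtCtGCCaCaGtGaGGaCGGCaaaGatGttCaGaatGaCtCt

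When transcript length and GC content were corrected for, by smooth curves fitted per library over all tested genes, most of the 10 moved towards 0. Their range narrowed from 1.36 to 0.85 log2 units and their median from 0.15 to 0.012. Esam went from 0.49 to 0.12, Cldn5 from 0.55 to 0.10, Tie1 from 0.32 to 0.13 and Emcn from -0.28 to -0.07, while Egfl7 went from 0.26 to -0.20. Tek alone stayed far from 0, at -0.72 ± 0.30 (edgeR adjusted p = 0.409). None of the 10 was called after the correction.

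**Figure D3:**
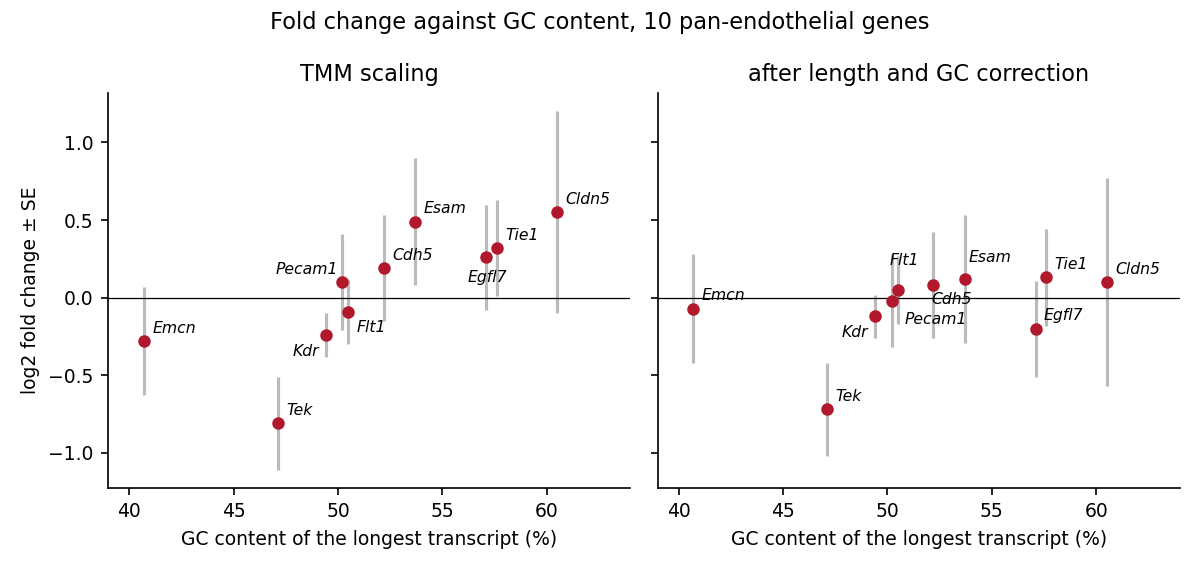
Log2 fold change ± SE of the 10 genes against the GC content of their longest transcript in percent, before (left) and after (right) the correction for length and GC content. On the left the 4 genes below 0 are among the 5 of lowest GC content and Cldn5 (0.55) is at the high end, and on the right all but Tek (-0.72) lie between -0.20 and 0.13.

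The choice of scale moved all 10 together. The table also counts synthetic spike-in RNAs of the ERCC set, which took 596 and 713 counts in the Runx1 libraries, 494 and 434 in the IgG ones. Scaled to these spike-ins, the median of all tested genes moved to -1.25 and all 10 genes were below 0, from -2.09 (Tek) to -0.67 (Cldn5). On that scale 5 of the 10 were called lower (Pecam1, Kdr, Flt1, Tek and Emcn), where 31.6% of all tested genes were. Relative to the median gene under the same scaling the 10 ran from -0.83 to 0.58, against -0.83 to 0.52 in the TMM fit, so the order among them was kept. How much spike-in was added, and at which step, is not stated in the labels.

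**Figure D4:**
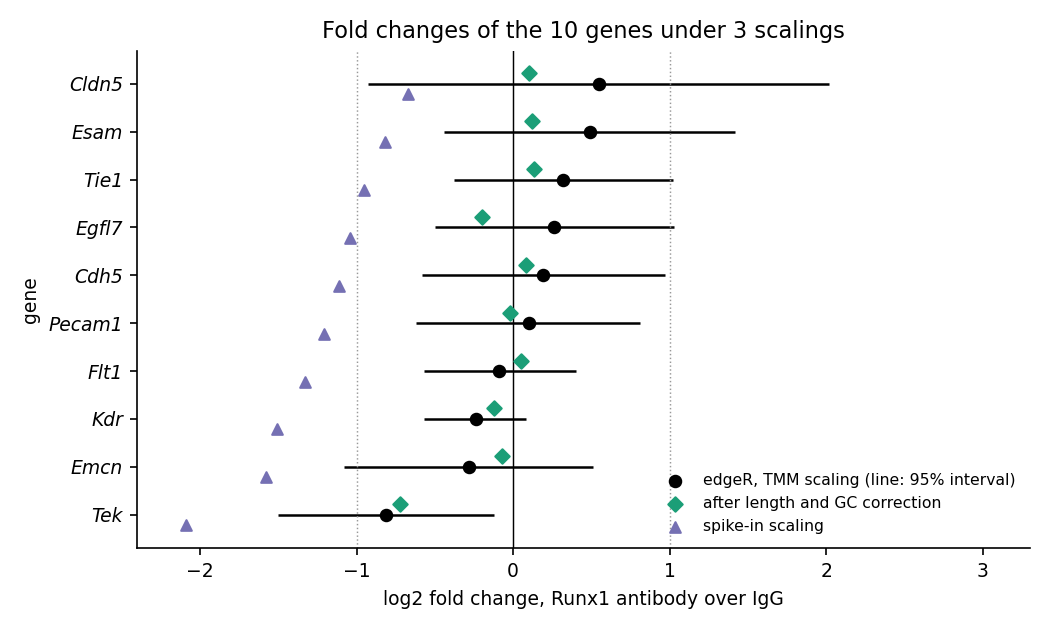
Log2 fold change (Runx1 antibody over IgG) of each gene with TMM scaling (black points, lines for 95% intervals), after the length and GC correction (green) and with spike-in scaling (purple), with dotted lines at 2-fold. The 95% interval of Tek (-1.50 to -0.12) is the only one of the 10 that leaves out 0, and the purple points are all to the left of 0.

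Genes that work with the 10 were examined as lists chosen by function. Of 25 genes of VEGF and angiopoietin signalling, 21 were tested, 0 were called and 21 did not pass, with 5 log2 fold changes above 0 and 16 below and a median of -0.36, against 0.027 for all tested genes. Before adjustment 2 had an edgeR p under 0.05 in each direction, as did 6.88% (higher) and 7.36% (lower) of all tested genes. The 2 with the smallest p were the TIE2 ligand gene Angpt2 (64 and 22 counts against 22 and 2, log2 fold change 2.83 ± 1.1, edgeR adjusted p = 0.278) and Akt1, a kinase downstream of both receptor families (296 and 301 counts against 364 and 271, 0.69 ± 0.26, edgeR adjusted p = 0.279). Angpt1, the activating ligand of TIE2, had 33 and 17 counts against 232 and 62 (-1.61 ± 0.68, edgeR adjusted p = 0.333) and is named after its values were seen. Neither ligand gene passed.

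Of the 22 junction partners 0 were called, with 7 above 0, 15 below and a median of -0.18, against 0.027 for all tested genes. Before adjustment 0 were higher and 4 lower at an edgeR p under 0.05, where 6.88% and 7.36% of all tested genes were. The same values for all tested genes apply to the lists that follow. Afdn, which encodes the scaffold protein afadin, stood at 242 and 244 CPM against 380 and 327 (-0.57 ± 0.18, edgeR adjusted p = 0.212). Krit1, a regulator of endothelial junctions, stood at 94.3 CPM in both Runx1 libraries against 177 and 143 (-0.79 ± 0.27, edgeR adjusted p = 0.238). Of 20 endothelial transcription factors, 18 were tested and 0 called (median -0.06, 7 above 0 and 11 below, with an edgeR p under 0.05 before adjustment for 1 higher and 0 lower). Klf4, a transcription factor that responds to blood flow, stood at 31.6 and 39.2 CPM against 7.81 and 8.06 (2.13 ± 0.63, edgeR adjusted p = 0.189). Tal1, a factor of blood and endothelial specification, stood at 6.57 and 6.36 against 22.4 and 18.1 CPM (-1.67 ± 0.74, edgeR adjusted p = 0.357). Of 25 further endothelial genes, 24 were tested and 0 called (median -0.12, 10 above 0 and 14 below, with an edgeR p under 0.05 before adjustment for 1 higher and 0 lower). The 2 with the smallest p were the sphingosine phosphate receptor gene S1pr1 (16 and 75 counts against 25 and 2, edgeR adjusted p = 0.321) and Vwf (257 and 285 against 340 and 351 CPM, -0.38 ± 0.18, edgeR adjusted p = 0.380). The sums of this last list, 1157.9 and 1535.5 against 1440.9 and 1408.1 CPM, overlapped as those of the 10 did. Those of the transcription factors also overlapped (1410.3 and 1255.2 against 1502.9 and 1303.4 CPM). The VEGF and angiopoietin list summed to 1818.0 and 1828.0 against 2216.6 and 2082.2 CPM. The junction partners summed to 3143.0 and 3361.4 against 3647.6 and 3746.5 CPM. These sums were lower in both Runx1 libraries than in both IgG libraries, which was not tested.

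Transcripts of other cell types were present. In summed CPM, not scaled to length, they ran from near the level of the 10 (mesenchyme) to far below it (epithelium, macrophages and blood progenitors). Summed per kilobase, erythroid markers stood at 1087.6 (Runx1) and 604.6 (IgG) CPM against 275.8 and 277.2 for the 10. The other lists given here stood below the 10 on that scale, the mesenchymal one highest at 206.4 and 174.4. Markers of mesenchyme (10 genes, all with counts in every library) summed to 1552.4 and 1547.7 CPM (Runx1) against 1438.3 and 1345.7 (IgG). Per kilobase, Col3a1, a fibrillar collagen, stood at a mean of 42.5 CPM and the growth factor receptor gene Pdgfra at 41.8, above Pecam1 (15.1) and Cdh5 (19.9) and below Kdr (89.5). Neural markers summed to 854.7 and 777.8 against 689.2 and 689.4 CPM, led by Nes, an intermediate filament gene also used by endothelium, and Pax3. Epithelial markers, led by Cdh1 and Epcam, summed to 179.1 and 172.7 against 183.7 and 152.3 CPM. Erythroid markers summed to 888.1 and 938.4 against 526.4 and 496.0 CPM, led by the embryonic globin genes Hbb-y and Hba-x. Here the Runx1 libraries stood above the IgG libraries, where 4 of 10 tested genes were higher at an edgeR p under 0.05 before adjustment, as were 6.88% of all tested genes, and 0 were called. By the same measure 2 of 5 macrophage genes were higher, and of 10 mesenchymal genes 3 were higher and 2 lower. Of 7 tested neural genes 1 was higher (Nes) and 1 lower, where 7.36% of all tested genes were lower. The lower one was Map2 (log2 fold change -0.96 ± 0.32, edgeR adjusted p = 0.223), which is named after its values were seen. Macrophage markers stood at 148.0 and 219.9 against 98.4 and 89.0 CPM, where Csf1r alone held 272 counts in Runx1 replicate 2 and 20 in replicate 1, and Mrc1, the other leading gene, overlapped between groups. Blood progenitor and leukocyte markers, led by Kit and Ptprc, stood at 171.9 and 185.5 against 196.4 and 191.4 CPM. The mesenchymal, neural and macrophage sums were, like the erythroid ones, higher in both Runx1 libraries than in both IgG libraries. The blood progenitor and leukocyte sums were lower in both, and the epithelial sums overlapped. In none of these 6 lists was a gene called. The part of other cells in the values of the 10 was not tested. These are bulk pull-down libraries without an input library. Fewer cells of a type, less RNA per cell and less RNA recovered with the antibody and beads cannot be told apart.

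**Figure D5:**
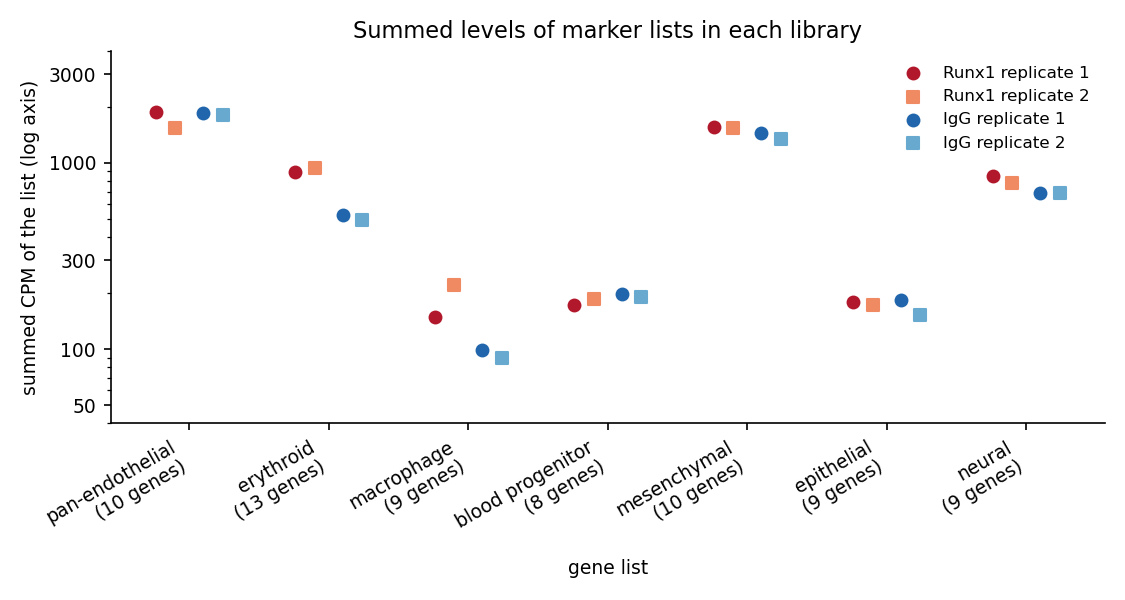
Summed CPM of the 10 pan-endothelial genes and of 6 lists of cell type markers in each library, on a log axis, with red and orange for the Runx1 antibody and blue for IgG. The sums are not scaled to length, and Kdr and Flt1 make up most of the pan-endothelial ones. The pan-endothelial sums (1546.7 to 1883.6 CPM) overlap between antibodies and lie near the mesenchymal ones (1345.7 to 1552.4), and among the sums that stand higher with the Runx1 antibody the erythroid ones are clearly separated (888.1 and 938.4 against 526.4 and 496.0).

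The members differed in how closely they followed each other across the libraries. After centring, the mean log2 profile of the 10 was 0.14 and -0.10 in Runx1 replicates 1 and 2 and 0.03 and -0.07 in IgG replicates 1 and 2. Tie1, Kdr, Cdh5, Pecam1 and Flt1 stayed within a root mean square of 0.17 log2 units of that profile, whereas Tek (0.47), Cldn5 (0.40) and Esam (0.36) departed most. Tek departed by its low value in Runx1 replicate 2 (-0.77) and its high values in IgG replicates 1 and 2 (0.51 and 0.33), and Esam by its high Runx1 replicate 1 (0.62) and low IgG replicate 2 (-0.60). Among 8787 other protein-coding genes with a mean of at least 10 CPM, those nearest to the mean profile over the 4 libraries were Agap1 (root mean square difference 0.0063), Acadm (0.014), Ninl (0.019), Ogdh (0.022) and Meis1 (0.023). Meis1, a homeobox gene of blood stem cells and endothelium, stood at 393.3 and 324.8 against 368.2 and 331.2 CPM. A profile over 4 libraries is matched closely by many genes, and this nearness is a description only.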

How the data were processed

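The authors deposited 1 table of raw counts per Ensembl gene with a column per library, 2 made with the Runx1 antibody and 2 with IgG, grouped by sample title. The build was mm10 and the tools listed were STAR 2.7.3a, Salmon 1.1.0 and Trimmomatic 0.36, per the submitters' processing notes, which state no role, so the whole numbers may be counted reads or rounded estimates. Per the labels' protocols, recovered RNA was reverse transcribed with a single-cell method and the cDNA sonicated, with no molecular identifiers named. Intervals of counts therefore cover counting error only. Gene counts per library were 1675488 and 1887301 (Runx1) and 3843318 and 2482045 (IgG), and 3 counts correspond to 0.781 to 1.79 CPM. Spike-in rows (92) stayed out of library totals and tests.

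Genes were tested two-sided by edgeR 4.0.16 (R 4.3.3, quasi-likelihood, TMM, filterByExpr with a minimum count of 10 and total of 15, no block). Benjamini-Hochberg adjustment was over 12401 genes. The procedure was also run on simulated counts in which genes drawn at random from all tested ones were given a set change (44 to 49 genes a size). It called 0% of 1.5-fold, 8.16% of 2-fold, 20.5% of 3-fold and 40.4% of 4-fold changes, and 0 unchanged genes. Most changes of these sizes were thus missed over genes of all levels. The rates were not worked out for the 10. By mean CPM these rank from 124 (Kdr) to 3132 (Emcn) of 12401, apart from Cldn5 (7041). Symbols, lengths, GC content and positions came from GENCODE M21, and near-identical copies were sought with blastn 2.17.0. Alternatives used DESeq2 1.42.0, limma 3.58.1 (voom), other scalings, filters and thresholds, a block for the replicate number, each library left out, and offsets for GC content and length from natural splines (5 degrees of freedom each). The members and lists were chosen with earlier results of these data known. Named genes are all members, the 2 genes with the smallest p per functional list, the 2 most abundant per marker list, and the 5 nearest to the members' mean log2 CPM profile (prior count of 2). The result of 1 further marker list is not reported here.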

Additional observations from a re-analysis of the deposited data

How the results depend on the processing

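The number of pan-endothelial genes called higher was 0 under all alternatives, and the number called lower was 0 except with spike-in scaling (5) and with 1 library left out (0 to 1). With spike-in scaling 31.6% of all tested genes were called lower. The list median was 0.15 with TMM scaling, -1.16 with spike-in scaling and -0.0032 to 0.26 with 1 library left out. Of 140 fold changes under an alternative, 15 changed sign. Those at a false discovery rate of 0.1 repeat the main fold changes, since only the threshold differs, and could not change sign. With spike-in scaling Kdr, Flt1, Tek and Emcn kept their sign and were called where the reported fold change was not. Without Runx1 replicate 1 Tek went to -1.23. Pecam1 with spike-in scaling both changed sign and was called. With spike-in scaling the sign changed for Pecam1 (-1.21, edgeR adjusted p = 0.0452), Cdh5 (-1.11), Tie1 (-0.95), Esam (-0.82), Cldn5 (-0.67) and Egfl7 (-1.04), where the scaling itself moved the median gene by a like amount. With length and GC corrected for it changed for Pecam1 (-0.025), Flt1 (0.05) and Egfl7 (-0.20), and the other changes of sign came with 1 library left out, where Pecam1 ran from -0.069 to 0.26, Cdh5 from -0.012 to 0.41, Flt1 from -0.32 to 0.074, Cldn5 from -0.0097 to 0.92 and Egfl7 from -0.0056 to 0.44. Over all genes, 38 higher and 42 lower calls became 19 and 3914 with spike-in scaling, 224 and 325 with no low-count filter, 125 and 159 with the strict filter, 23 and 4 with length and GC corrected for, 246 and 344 with DESeq2, 102 and 120 with limma-voom, 106 and 124 at a false discovery rate of 0.1, and 95 to 248 and 81 to 352 with 1 library left out. With a replicate block in edgeR they were 2 and 0, and 0 of the 10 genes were called. The block rests on a shared number alone, since the deviations of same-numbered libraries correlated at 0.00438 over genes. DESeq2 gave Cldn5 no adjusted p. By the longest transcript, 14 of 20 length-scaled levels moved by more than 1 SD. The cause of these changes was not tested where none is named. Depth limits Cldn5 most, with 35 to 59 counts a library.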
